A study of Mus musculus with 12 samples.

Results

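The cytosolic ribosomal protein genes encode the proteins of the ribosome that works in the cytoplasm, and 78 of them were followed in mouse bone marrow stem and progenitor cells. They were chosen by gene symbol in the GENCODE M21 annotation: Rpl or Rps with a number and at most one trailing letter a or x, plus Rplp0, Rplp1, Rplp2, Rpsa, Rps3a1 and Fau. The 78 comprised 32 genes of the small subunit and 46 of the large subunit. All 78 had at least 10 reads in 3 libraries, as had 15061 genes in all, so no member was lost to the filter on low counts, and the smallest estimate for any member in a library was 148 reads (Rps2). Pseudogenes, S6 kinases and ribosomal proteins of mitochondria were not members.

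The cells were sorted by flow cytometry from bone marrow as Flk2-negative, lineage-negative, Sca-1-positive and Kit-positive, a gate that holds haematopoietic stem cells and early progenitors. Their polyA RNA was sequenced in 12 libraries, 3 for each of 4 genotypes, each library with a mouse number of its own. The Wild-type group carried neither alteration, Mdmx-Tg carried an Mdmx transgene, Pu.1-URE-/- lacked an upstream regulatory element of Pu.1 on both alleles, and Mdmx-Tg/Pu.1-URE-/- carried both. Mdmx (gene symbol Mdm4) is an inhibitor of p53, and Pu.1 (gene symbol Spi1) is a transcription factor of myeloid and lymphoid development. The transgene's promoter, the strain and the age of the mice are not given in the sources used here. The study's title set Mdmx in the context of the passage from preleukaemia to acute myeloid leukaemia, and the 4 groups allow the transgene and the element to be compared alone and together.

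A ribosome joins a small subunit, which decodes the message, to a large subunit, which forms the peptide bond, and growing cells hold their proteins in near-equal numbers. The messages of these genes start with a run of pyrimidines, the terminal oligopyrimidine tract, through which mTOR signalling controls their translation. Free ribosomal proteins, with Rpl5 and Rpl11 bound to 5S rRNA as the best known, can bind the p53 ubiquitin ligase MDM2, the partner of Mdmx. Inherited loss of one copy of several of them causes Diamond-Blackfan anaemia, a failure of red cell production.

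The start sites of members that were lower on loss of the element are shown first, as examples of pyrimidine runs near an annotated start. One of them, Rps4x, had a short run. Of the called members with an entry, Rpl9 and Rpl6 also had short runs, of 4 and 6 bases. Each line gives 30 bases around a RefSeq start (build GRCm38.p6), written 5′ to 3′ on the strand of the gene. The longest run of C and T within 25 bases of the start is in capitals, and in Rpl11 the run goes on past that limit. Counted from the annotated start, the runs began at -6 in Rps9, -1 in Rps6, -14 in Rpl7a and -18 in Rpl4. They began at 9 in Rps12, 14 in Rpl11 and 11 in Rps4x. That of Rpl4 ended before the annotated start. Whether a run is the terminal tract of the message was not tested. Rps9 lies at chr7:3704025-3704054 on the plus strand, Rps6 at chr4:86857349-86857378 on the minus strand, Rpl7a at chr2:26910789-26910818 on the plus strand, Rpl4 at chr9:64173361-64173390 on the plus strand, Rps12 at chr10:23787181-23787210 on the minus strand, Rpl11 at chr4:136053360-136053389 on the minus strand and Rps4x at chrX:102189365-102189394 on the minus strand.
Rps9: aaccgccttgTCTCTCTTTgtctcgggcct
Rps6: ggaagtcgggCCTCTTTTTCgtgacgcctc
Rpl7a: acaaTTCCCTCTTCTTTCTTTCTCCagcag
Rpl4: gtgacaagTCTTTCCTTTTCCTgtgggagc
Rps12: caccgccggCCTTTTCCCCTgccgccgccg
Rpl11: ggccggaagTCTCCCTCTCTCttcctgttc
Rps4x: ggagcaacccaggCTCCagcgcgcgcgcag
Of the 78 members, 58 had an entry in the RefSeq promoter table; among those without one were Rpl3, Rpl7, Rpl17, Rpl23a, Rpl30, Rplp1, Rps14 and Rps27a. Within 25 bases of the start, the longest pyrimidine run had a median of 9 bases in the members (range 3 to 21) and of 5 bases over 17492 genes. A run of at least 8 bases occurred in 31 of 58 members (53.45%) and in 22.04% of all genes, and a run of at least 10 bases in 24 members (41.38%) and in 10.61% of all genes. Where a gene had several annotated starts, the longest run was taken, in members and in all genes alike.

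Short words known as cores of binding sites were counted on both strands over the 250 bases before and 50 after each start. The core bound by ETS factors such as GABP, CCGGAAG, occurred in 24 of 58 members (41.38%) and in 12.95% of all genes. The word GAGGAAG, a core bound by PU.1, occurred in 11 members (18.97%) and in 15.53% of all genes. The other words searched were ATGGCG of YY1 (27.59% of members, 12.4% of all genes), GGGCGG of SP1 (62.07% and 49.23%), TATAAA of the TATA box (10.34% and 14.8%) and CACGTG of the E box (10.34% and 8.91%); a site could count for more than 1 word. One example of the ETS word, in capitals, lies just after the start of Rpl6, which was lower on loss of the element, at chr5:121204502-121204531 on the plus strand.
Rpl6: ttgcttatagaCCGGAAGccgctgccttag
A match describes these letters in this window and no bound site. On loss of the element, described further on, the median log2 difference was -0.55 in the 31 members with a run of at least 8 pyrimidines and -0.53 in the 27 with a shorter run. It was -0.56 in the 24 members with CCGGAAG and -0.50 in the 34 without, and -0.47 in the 11 with GAGGAAG and -0.54 in the 47 without. None of these splits was tested.

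The libraries held 47248522 to 55039035 estimated reads on annotated genes. Mdm4 stood at 35.8 to 77.9 CPM (reads in 1e6, scaled between libraries) in Wild-type and at 56.2 to 93.8 in the Pu.1-URE-/- mice. In carriers of the transgene it stood at 163 to 535 (Mdmx-Tg) and at 163 to 353 (both alterations). Spi1 lay at 5.33, 8.08 and 38.0 CPM in the Wild-type libraries, at 8.73 to 23.9 where the element alone was missing, 3.69 to 21.6 where the transgene alone was present and 0.02 to 3.48 where both applied. The single Pu.1-URE-/- libraries thus overlapped Wild-type for the gene whose element was removed. The 9 stem cell and gate markers, among them Kit, Ly6a and Procr, summed to 692.5 to 994.5 CPM in the 6 libraries with the element and to 394 to 644 in the 6 without it. Granule genes of neutrophils and their precursors (12 genes, among them Elane, Mpo and S100a8) summed to 852 to 2510 CPM with the element and to 33860 to 145400 CPM without it. Immunoglobulin genes took 31.15% of reads in Wild-type 1 and 0.13% to 10.6% in the other libraries. Y-linked genes were at 200 to 222 CPM in Wild-type 2 and in replicates 1 and 3 of the double mutant, and at 1.88 to 5.70 CPM in the other 9.

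Reads of many members were divided with near-identical copies elsewhere in the genome, which bears on every value below. A copy was a gene whose transcript matched at least 80% of a member's coding sequence at 95% identity or more. There were 561 such copies, of which 531 were processed pseudogenes and 530 had reads, and 75 of the 78 members had at least 1. Over all libraries, 80.15% of the reads of these families were assigned to the members and 19.85% to the copies. For 41 members over 95% of the family's reads were on the member, and for 10 members fewer were on the member than on its copies, with Rpl5 lowest at 3.73%.

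The coding sequences show how little separates some pairs. Stretches of 30 coding bases of 3 pairs are given from the GENCODE M21 transcripts (build GRCm38), with the base that differs in capitals and positions counted from 1 at the first base of the member's coding sequence. Rpl3 (chr15:80077791-80091868, minus strand) and its copy Rpl3-ps1 (chrX:13202571-13203780, plus strand) differed at 2 of 1209 positions, C57A and T786C.
Rpl3: ggcttcctgcctcgCaagcgcagcagccgg
Rpl3-ps1: ggcttcctgcctcgAaagcgcagcagccgg
Rps18 and Gm10260 (chr13:97760072-97760632, minus strand), which is annotated as protein-coding, differed at 4 of 456 positions, of which T186C is shown.
Rps18: gaactcacggaggaTgaggtggagcgagtg
Gm10260: gaactcacggaggaCgaggtggagcgagtg
Rpl30 and Gm12191 (chr11:49678710-49679057, minus strand) differed at 1 of 345 positions, G96A.
Rpl30: gtgctgggctacaaGcagactctgaagatg
Gm12191: gtgctgggctacaaAcagactctgaagatg
Rpl5 and Gm15500 (chr7:114705217-114706235, minus strand) did not differ over the 891 bases of the coding sequence.

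For 11 members the share of family reads on the member ranged over more than 20 percentage points between libraries, and in several it took a few separate levels. Rps18 held 98.4% and 98.3% of its family's reads in Mdmx-Tg 2 and Pu.1-URE-/- 2. It held 4.11% to 5.50% in Wild-type 1, Pu.1-URE-/- 3 and double mutant 2, and 57.0% to 60.4% in the other 7 libraries. The levels of Rps18 thus cut across the genotypes. Rpl3 held 54.6% to 55.5% in Wild-type 3, Mdmx-Tg 3 and all 3 double mutants, and 18.5% to 20.7% in the other 7 libraries. Rplp0, which anchors the stalk that recruits translation factors, held 79.8% to 81.8% in the 3 Pu.1-URE-/- libraries, 99.9% in double mutant 1 and 42.5% to 44.7% elsewhere. For Rpl3 and Rplp0 the levels partly followed the genotypes, and their differences between groups changed when the copies' reads were added. What sets the level in a library was not tested.

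**Figure D1:**
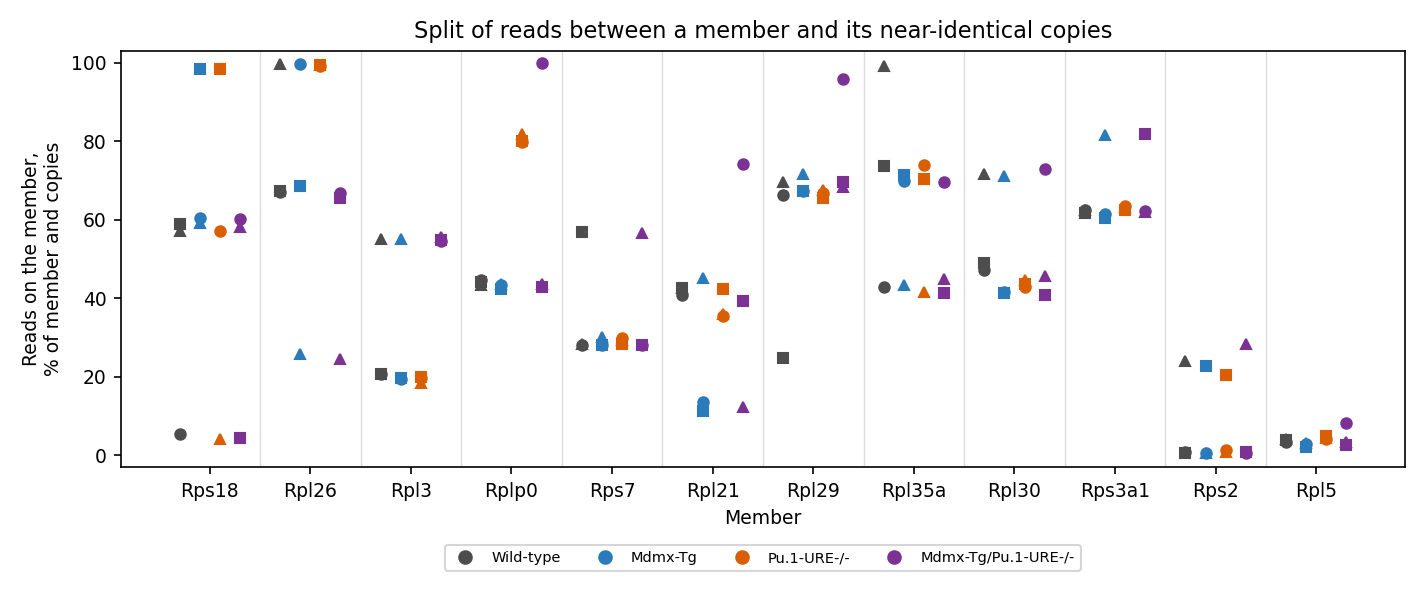
Share of reads assigned to the member (y axis, % of the reads of the member and its near-identical copies) for 12 members (x axis). Each point is a library, coloured by genotype, with circle, square and triangle for replicates 1, 2 and 3. Rps18 lies near 5%, 58% and 98% and Rpl3 near 20% and 55%, with libraries of several genotypes at most levels.

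Per length, the members differed widely. On the authors' TPM scale, high means over 12 libraries were those of Rps25, at 3222 ± 922 TPM (SD, n = 12), and of Rps19, the gene most often mutated in Diamond-Blackfan anaemia, at 2295 ± 753. The ranges of mean ± SD of both overlapped. The lowest were Rpl5 at 35.95 ± 15.5 TPM, Rpl12 at 41.1 ± 16.7 and Rps12 at 60.5 ± 27.0, also with overlapping ranges, and in all 3 the copies held most of the family's reads. Within the stalk, Rplp1 was at 1173 ± 357 TPM, Rplp0 at 613 ± 410 and Rplp2 at 454 ± 166. Within the 5S particle, Rpl11 was at 487 ± 170 TPM against the 35.95 TPM of Rpl5, which held 2.27% to 8.25% of its family's reads in the 12 libraries.

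As a whole, ribosomal protein messages took a smaller share of reads in 4 of the 6 libraries without the Pu.1 element than in any library with it. In Wild-type they held 2.86%, 3.38% and 4.999% of the reads, and in Mdmx-Tg 3.48%, 3.61% and 4.16%. In Pu.1-URE-/- they held 1.77%, 3.27% and 2.03%, and in the double mutants 2.54%, 3.55% and 2.19%. Replicate 2 of Pu.1-URE-/- and replicate 2 of the double mutant lay within the range of the groups with the element, and the other 4 libraries without it lay below all 6 with it. With immunoglobulin reads left out of the total, the shares of the groups with the element were 3.77% to 5.02% (Wild-type) and 3.62% to 4.65% (Mdmx-Tg). Those of the groups without it were 1.78% to 3.31% (Pu.1-URE-/-) and 2.24% to 3.71% (double mutant). On that base all 3 Pu.1-URE-/- libraries were below all 6 with the element, while double mutant 2 (3.71%) overlapped Mdmx-Tg 1 (3.62%). On the authors' TPM scale, which counts per length, the order differed: Wild-type 1, at 3.69% of TPM, was the lowest of all 12 libraries. The other 5 with the element held 6.39% to 11.5% and the 6 without it 4.06% to 7.46%, so that the groups overlapped.

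**Figure D2:**
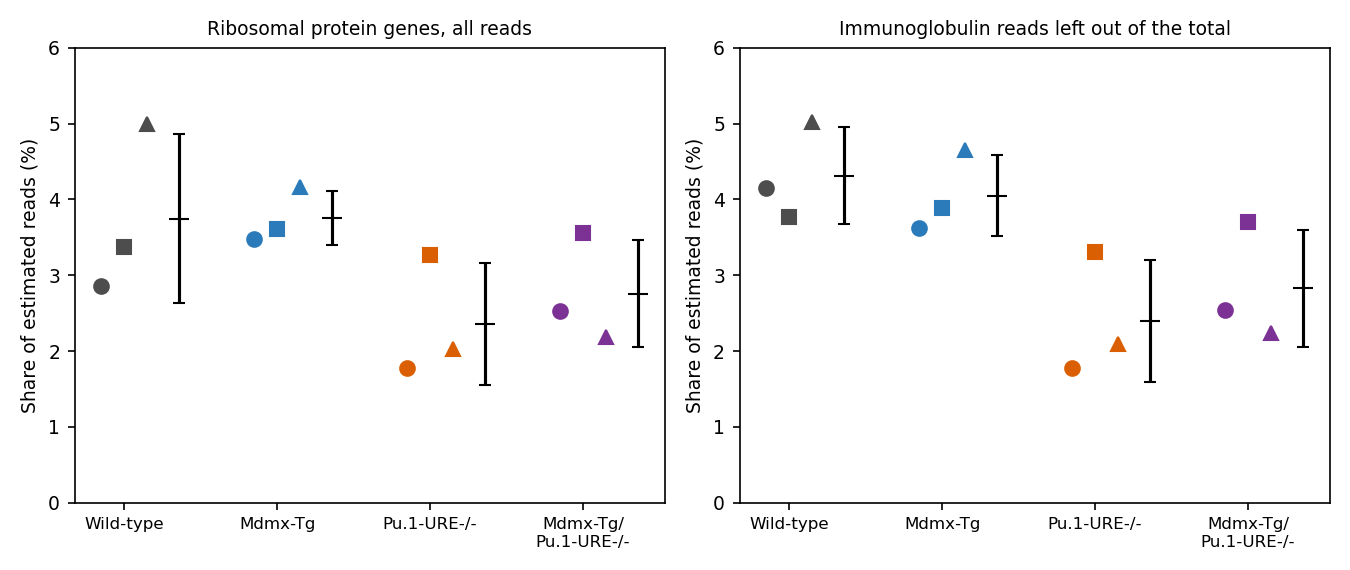
Share of estimated reads on the 78 ribosomal protein genes (y axis, %) by genotype (x axis), from all reads (left) and with immunoglobulin reads left out of the total (right). Points are libraries (circle, square, triangle for replicates 1, 2, 3) and bars the mean ± SD of 3; replicate 2 is the highest library of both groups without the element.

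Those 2 libraries also carried the lowest neutrophil granule signal of their groups. The granule genes summed to 52180 CPM in Pu.1-URE-/- 2, against 145400 and 107200 in replicates 1 and 3, and to 33860 CPM in double mutant 2, against 57420 and 41570. Double mutant 3 had less granule signal than double mutant 1 but also the smaller share of ribosomal protein reads. The stem cell and gate markers were lowest of all 12 libraries in double mutant 2 (394 CPM). In Pu.1-URE-/- 2 they were the highest of that group (559 CPM). Macrophage markers, 7 genes, summed to 17.4 to 56.7 CPM with the element and to 389 to 2662 without it. Adgre1 was at 0 in both groups lacking the element, Csf1r also in Pu.1-URE-/- and C1qa also in the double mutants. T and NK cell markers, 7 genes, summed to 100 to 319 CPM with the element and to 1549 to 3948 without it. Ncr1 was at 0 in both groups lacking the element, Cd3g also in Pu.1-URE-/- and Cd3e also in the double mutants. With the element, Cd3e was at 0 in both groups and Cd3g in Wild-type. Mast cell and basophil markers summed to 122 to 245 CPM with the element and to 318 to 840 without it. Megakaryocyte markers moved the other way, at 68.4 to 186 CPM with the element and 9.62 to 64.1 without it, and erythroid markers lay at 632 to 2997 and 30.2 to 1141 CPM, with overlap. B and plasma cell markers overlapped, at 2828 to 216300 and 1085 to 32540 CPM. In bulk RNA, fewer cells of a type and less RNA per cell cannot be told apart. The part of any other cell type in the ribosomal protein values was not tested. The share of member reads on the small subunit stayed between 39.3% and 45.5% in all 12 libraries.

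In the groups without the transgene, loss of the element went with lower levels of nearly the whole set. Between Pu.1-URE-/- and Wild-type, 76 of 78 members had a negative log2 difference, with a median of -0.61 (1 unit is a factor of 2 in CPM), while the median over all 15061 genes was -0.03. All 3 Pu.1-URE-/- libraries lay below all 3 Wild-type libraries for 42 members (53.85%), and for 13.7% of all genes. One member passed an adjusted p of 0.05, where 0.87% of all genes were called lower. In the fit, edgeR's quasi-likelihood test with Benjamini-Hochberg adjustment over all genes, 43 members (55.1%) and 19.7% of all genes had an unadjusted p under 0.05; DESeq2 called 23 members and 12.3% of all genes. With single libraries left out, the median lay between -0.87 and -0.47.

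That member was Rps14, the small-subunit gene whose loss drives the anaemia of a myelodysplastic syndrome with a chromosome arm deletion. Rps14 was at 883, 823 and 975 CPM in Wild-type and at 417, 524 and 321 CPM in Pu.1-URE-/-. The groups did not overlap, and Rps14 was 2.12-fold lower in Pu.1-URE-/- (log2 -1.09, SE 0.24, adjusted p = 0.029 by edgeR). Of the family's reads, 99.96% were on Rps14. With single libraries left out, Rps14 kept its call in 7 of 12 cases and lost it without Wild-type 1, 2 or 3 or Pu.1-URE-/- 1 or 3, when 0 members were called (highest adjusted p of Rps14 0.118 by edgeR). Without Pu.1-URE-/- 2, 11 members were called, and without double mutant 2, 4. The share of all genes called in these fits is not given. In the double mutants Rps14 was at 561, 630 and 591 CPM, above all 3 Pu.1-URE-/- libraries and below all 3 of Wild-type. Its transgene effect in the absence of the element (log2 0.50) had an adjusted p of 0.489 by edgeR.

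Rplp0 and Rpl3 stood at the edges of that comparison. Rplp0 was at 498, 499 and 600 CPM in Wild-type and at 739, 1167 and 924 CPM in Pu.1-URE-/-, the only member higher without overlap (15.9% of all genes were). With the copies' reads added the log2 difference of Rplp0 went from 0.83 to -0.05. Rpl3, which lies at the peptidyl transferase centre, had the most negative difference of all members (log2 -1.39, adjusted p = 0.163 by edgeR), and -0.61 with its copies added, the median of the set. Both differences came nearer to the rest of the set once the copies were counted.

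The average effect of element loss, 6 libraries against 6, gave the largest number of calls. Of the 78 members, 18 (23.08%) were called lower and 0 higher, where 3.8% of all genes were called lower and 8.02% higher. The median log2 difference of the members was -0.53, against 0.00 over all genes, and 76 of 78 were negative. Unadjusted p by edgeR was under 0.05 for 58 members (74.4%) and for 26.8% of all genes. The calls were spread over both subunits, 6 of 32 in the small (Rps4x, Rps6, Rps9, Rps12, Rps14 and Rps27a) and 12 of 46 in the large (Rpl4, Rpl6, Rpl7, Rpl7a, Rpl8, Rpl9, Rpl10a, Rpl11, Rpl14, Rpl17, Rpl23a and Rpl27a).

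These counts depended on single libraries. The share of all genes called in the same fits is not given, so the shifts are not read as particular to the members. Without Pu.1-URE-/- 1 a single member was called, without Pu.1-URE-/- 3 there were 3, and without double mutants 1 and 3 there were 7 and 5. Without Wild-type 2 or Wild-type 3 there were 8 and 9, and without Mdmx-Tg 2 or Mdmx-Tg 3 there were 10 and 8. Leaving out replicate 2 of either group without the element raised the count, to 34 for Pu.1-URE-/- and to 47 for the double mutant. With 3 libraries left out at once (Wild-type 1 with its immunoglobulin reads, Mdmx-Tg 2 and double mutant 3), a choice made after seeing the data, edgeR called 0 members. With Y-linked expression as a covariate there were 7. Throughout, the median log2 difference stayed between -0.69 and -0.46.

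**Figure D3:**
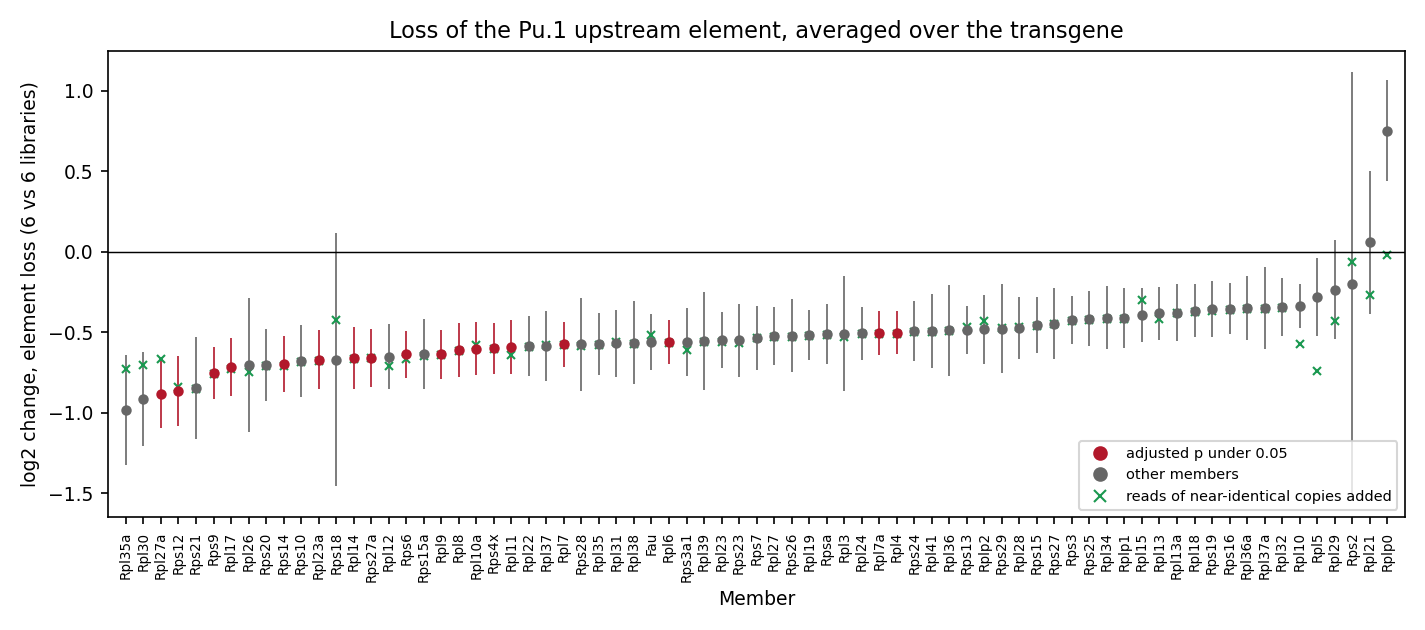
log2 difference on loss of the Pu.1 upstream element (y axis, mean of both transgene states, 6 against 6 libraries) for 73 of the members (x axis, sorted), with bars of 1 SE from edgeR. Red points passed an adjusted p of 0.05, and green crosses give the value with the reads of near-identical copies added; all crosses lie below 0, including that of Rplp0.

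Rps9, which lies where the message enters the small subunit, had the smallest p among the members. Rps9 (ENSMUSG00000006333.14, chr7:3703993-3706897) was at 977, 1029 and 1119 CPM in Wild-type and at 949.6, 1141 and 1122 CPM in Mdmx-Tg. It was at 452, 739.7 and 559 CPM in Pu.1-URE-/- and at 531, 899 and 592 CPM in the double mutants. All 6 libraries without the element lay below all 6 with it, a 1.68-fold difference (log2 -0.75, SE 0.16, adjusted p = 0.0139 by edgeR). Rps9 was the one member still called whichever single library was left out, with a highest adjusted p of 0.0375 by edgeR.

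A further 3 members showed the same complete separation of 6 from 6 libraries, so that 4 of 78 (5.13%) did, against 1.89% of all genes. Rpl9, a large-subunit protein mutated in Diamond-Blackfan anaemia, was at 669.6 to 866 CPM with the element and at 362.5 to 659.5 CPM without it (log2 -0.64, adjusted p = 0.0211 by edgeR). Rpl6, also of the large subunit, was at 1010 to 1213 CPM with the element and at 556 to 985 CPM without it (log2 -0.56, adjusted p = 0.0238 by edgeR). Rps12, whose family reads were 20.7% on the member, was at 23.5 to 34.3 CPM with the element and at 9.79 to 22.3 CPM without it (log2 -0.86, adjusted p = 0.0264 by edgeR). In Rps9, Rpl9, Rpl6 and Rps12 alike, the highest library without the element was a replicate 2.

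Rps6, the substrate of the S6 kinases downstream of mTOR, was at 873, 981.5 and 1043 CPM in Wild-type and at 910.2, 1075 and 1007 CPM in Mdmx-Tg. It was at 469, 719 and 519 CPM in Pu.1-URE-/- and at 581, 876 and 644 CPM in the double mutants. Only double mutant 2 reached the level of the groups with the element, and the average difference of Rps6 was 1.56-fold (log2 -0.64, SE 0.15, adjusted p = 0.0183 by edgeR). Rpl4, which lines the exit tunnel for the new protein chain, was the most abundant of the called members on the CPM scale, at 2030 to 2398 CPM with the element and 1179 to 2059 CPM without it (log2 -0.50). Rpl27a had the most negative log2 difference among the calls, -0.88, and lost its call with the copies added (log2 -0.67, adjusted p = 0.0692 by edgeR); the other 17 were still called.

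**Figure D4:**
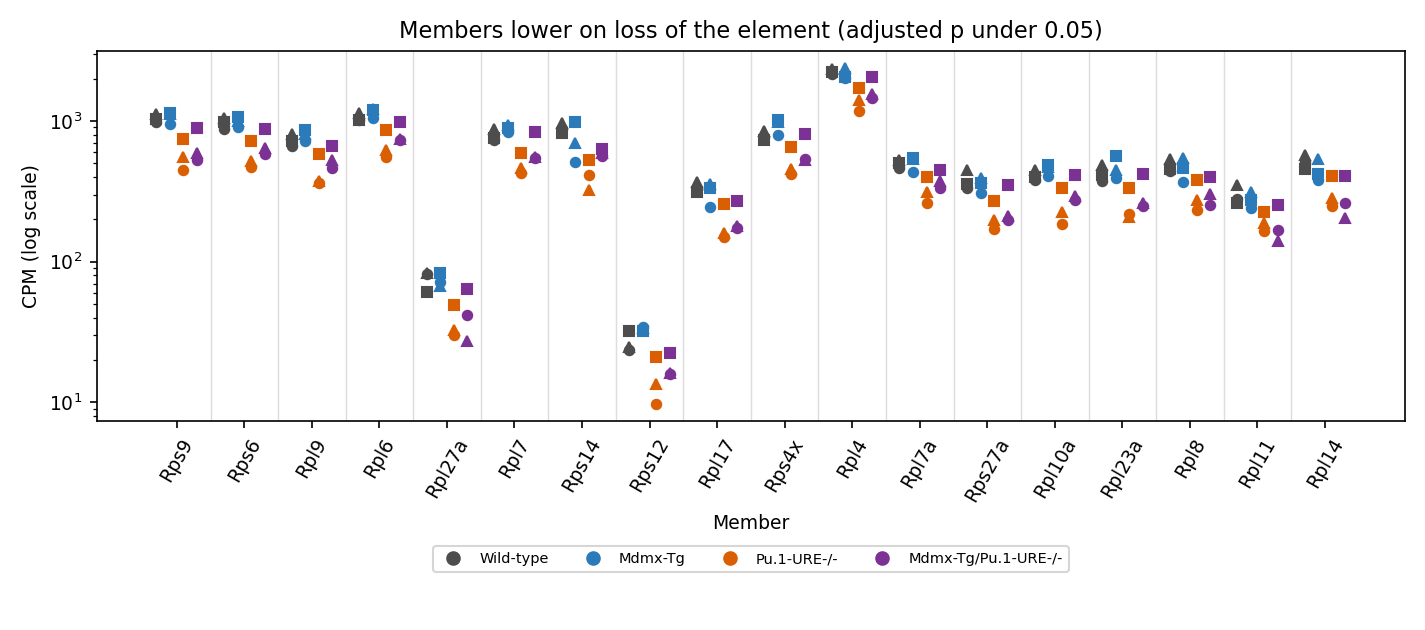
Level in each library (y axis, CPM, log scale) of the 18 members called lower on loss of the element (x axis, by adjusted p). Points are coloured by genotype, with circle, square and triangle for replicates 1, 2 and 3; squares, replicate 2, are the highest library of each group without the element in all 18.

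Adding the copies' reads, an alternative chosen after seeing the data, raised the number called lower to 25. The share of all genes called lower in that fit is not given. The log2 difference was then negative for 78 of 78 members, among them Rplp0 at only -0.02 and Rps2 at only -0.06. Rpl5 changed most in standing. As deposited, Rpl5 had a log2 difference of -0.28 (adjusted p = 0.52 by edgeR), with double mutant 1 at 46.6 CPM, the highest of all 12 libraries. With copies added the Rpl5 family was at 905 to 1337 CPM with the element and at 414 to 868 CPM without it (log2 -0.74, adjusted p = 0.0205 by edgeR), and the 6 and 6 libraries no longer overlapped. Which of the identical genes the reads came from cannot be read from these counts. The other 7 members called in this way were Rpl3, Rpl10, Rpl12, Rpl26, Rpl30, Rps3a1 and Rps7. Among the 41 members with over 95% of their family's reads, where the copies matter least, 41 of 41 had a negative difference as deposited. Their median was -0.51, and 12 (29.27%) were called lower, against 3.8% of all genes.

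By role, the difference was of similar size throughout, and 3.8% of all genes were called lower. The 5S particle held Rpl11 (log2 -0.59, adjusted p = 0.0436 by edgeR), which was called, and Rpl5, which was not. Of the 13 members reported to bind MDM2, 13 had a negative difference, with a median of -0.55, and 3 were called lower (Rps14, Rps27a and Rpl11). Of 21 members mutated in Diamond-Blackfan anaemia, 21 were negative, with a median of -0.54, and 2 were called (Rpl9 and Rpl11); Rps19 had a log2 difference of -0.36 (adjusted p = 0.218 by edgeR). Of 6 members mutated or deleted in blood cancers, 2 were called, Rps14 and Rpl11.

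The members fused to ubiquitin or a relative of it were Rps27a, called with a log2 difference of -0.66, and Fau, at -0.56 (adjusted p = 0.059 by edgeR). In the stalk no member was called: Rplp1 had a log2 difference of -0.41, Rplp2 of -0.48 and Rplp0 of 0.75, the last falling to -0.02 with the copies added. Of the 4 X-linked members, Rps4x was called (log2 -0.60, adjusted p = 0.0339 by edgeR), and Rpl10, Rpl36a and Rpl39 lay at -0.34, -0.35 and -0.55. The medians of the role lists ran from -0.61 to -0.41, around the -0.53 of the whole set, and none was tested against another.

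**Figure D5:**
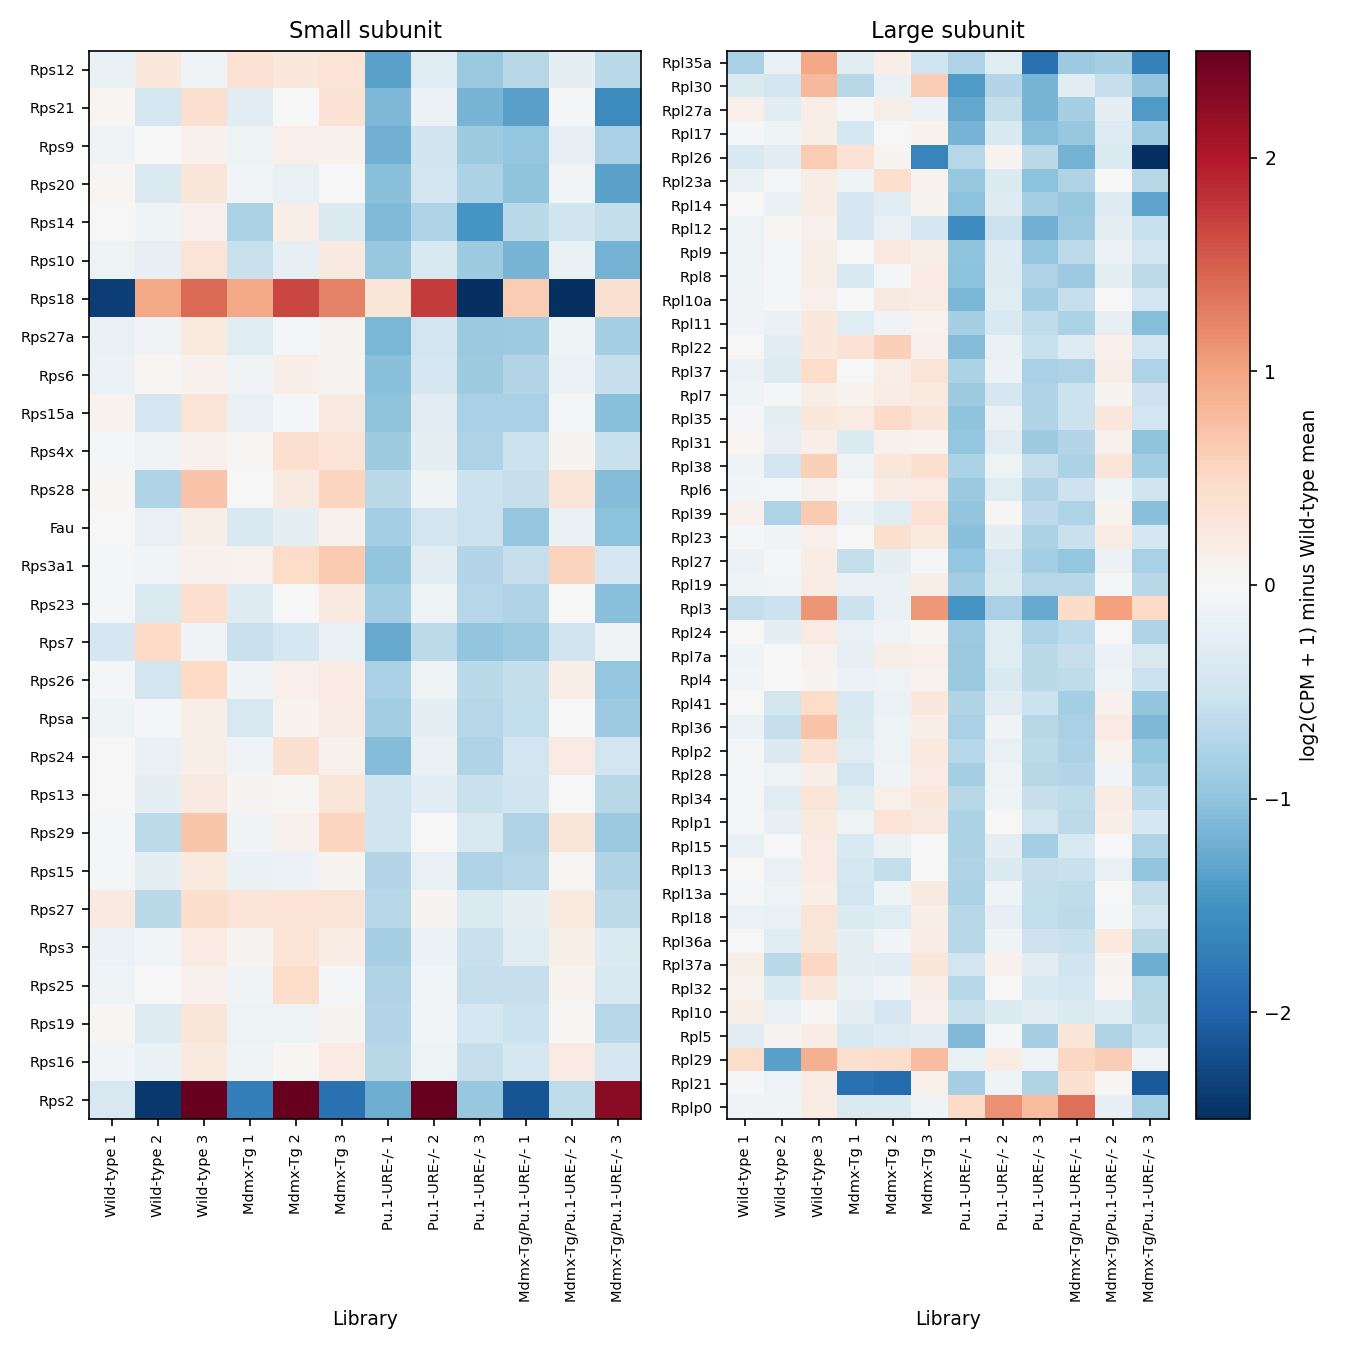
Level of 73 members in each library relative to Wild-type, as log2(CPM + 1) minus the mean of the 3 Wild-type libraries (colour, blue lower, red higher; the colours end at -2.5 and 2.5). Rows are members of the small (left) and large subunit (right), sorted by the difference on element loss, and columns are the 12 libraries. The blue of Pu.1-URE-/- 1 and 3 and of double mutants 1 and 3 runs through nearly all rows, while Rps2, Rps18, Rpl3, Rpl21, Rpl26 and Rplp0 break the pattern.

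With the transgene present, loss of the element also went with negative differences in most members. Between the double mutant and Mdmx-Tg, 74 of 78 members had a negative log2 difference with a median of -0.45, against 0.03 over all genes, and 12 members did not overlap and were lower (15.38%, against 7.23% of all genes). The 12 were Rps6, Rps9, Rps12, Rps13, Rps18, Rps27, Rpl6, Rpl7, Rpl9, Rpl22, Rpl27a and Rpl35a. None of the 78 members was called by edgeR, where 0.644% of all genes were called lower, while 15 members (19.2%) and 16.9% of all genes had an unadjusted p under 0.05, and DESeq2 called 4 members (5.13%) and 8.6% of all genes. The shares by unadjusted p and by DESeq2 take both directions, although nearly all members were negative, and so do not compare lower members with lower genes. Taken so, the members' share by unadjusted p was near that of all genes, and their share by DESeq2 was below it. With single libraries left out the median lay between -0.71, without double mutant 2, and -0.32, without double mutant 3, and it was -0.17 with Y-linked expression as a covariate. Against Wild-type, the double mutants were lower for 75 of 78 members by the sign of the log2 difference, with a median of -0.45, and 14 did not overlap (10.8% of all genes). In that comparison edgeR called 0 members, where 0.87% of all genes were called lower, 18 members (23.1%) and 18.4% of all genes had an unadjusted p under 0.05, and DESeq2 called 6 members (7.69%) and 10.2% of all genes. The median lay between -0.70, without double mutant 2, and -0.31, without double mutant 3, and was -0.28 with Y-linked expression as a covariate. The comparisons of the single and the double mutants with Wild-type share the same control libraries.

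The transgene alone left the set near the Wild-type level. Between Mdmx-Tg and Wild-type, 45 of 78 members had a negative and 33 a positive log2 difference, with a median of -0.04, against 0.00 over all genes. edgeR called 0 members and 0% of all genes, with 0 members and 10.5% of all genes at an unadjusted p under 0.05, and 0 members and 2.18% of all genes called by DESeq2. The median turned positive without Wild-type 3 (0.13) or Mdmx-Tg 1 (0.07). Rps12 was higher without overlap, and Rpl12 and Rplp0 were lower, where 6.57% and 7.06% of all genes were. The most negative difference was that of Rpl21 (log2 -0.89, adjusted p = 0.675 by edgeR), at 249 to 308 CPM in Wild-type and at 73.8, 71.2 and 298 CPM in Mdmx-Tg. It was -0.08 with the copies added.

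Without the element, 63 of 78 members had a positive log2 difference between the double mutants and Pu.1-URE-/-, with a median of 0.14, against 0.01 over all genes. That direction rested on double mutant 2, without which the median was -0.13, and it reached 0.33 without Pu.1-URE-/- 2 and 0.44 with Y-linked expression as a covariate. edgeR called 0 members and 0% of all genes, 1 member and 10.6% of all genes had an unadjusted p under 0.05, and DESeq2 called 1 member and 2.18% of all genes. Only Rpl3 and Rps14 were higher without overlap, against 9.87% of all genes. Rpl3 was at 144, 226 and 167 CPM in Pu.1-URE-/- and at 550.4, 813 and 556 CPM in the double mutants (log2 1.84, adjusted p = 0.407 by edgeR). With the copies added, the Rpl3 family was at 722, 1140 and 897 CPM and at 1004, 1491 and 997 CPM, a log2 difference of 0.34, and the groups overlapped.

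The transgene effect averaged over both states of the element had a median of 0.06 over the members, with 0 members and 0% of all genes called by edgeR, 2 members and 16.3% of all genes at an unadjusted p under 0.05, and 0 members and 6.81% of all genes called by DESeq2. That median was negative without Pu.1-URE-/- 1 or 3 or double mutant 2 (lowest -0.08). The test of whether the element's effect depended on the transgene, an interaction term, also called 0 members and 0% of all genes by edgeR, with 3 members and 5.78% of all genes at an unadjusted p under 0.05, and 0 members and 1.29% of all genes called by DESeq2. The median of this term over the members was 0.14, -0.13 without double mutant 2 and 0.34 without Pu.1-URE-/- 2. The medians of element loss, -0.61 without and -0.45 with the transgene, are therefore given as values and not as a difference.

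Other genes of protein synthesis moved in the same direction on loss of the element. Of 19 translation factors and related messages with a terminal oligopyrimidine tract, 18 were negative, with a median log2 difference of -0.49. Against 3.8% of all genes called lower and 8.02% higher, 6 of the 19 (31.58%) were called lower and 0 higher. They were Eef1g, Pabpc1, Npm1, Rack1, Eif3e and Eef1b2. Rack1, which sits on the small subunit as a signalling scaffold, was at 890 to 1205 CPM with the element and at 446 to 971 CPM without it (log2 -0.66, adjusted p = 0.0368 by edgeR).

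Of 45 ribosome biogenesis factors, 42 were negative, with a median of -0.49. Of these factors 10 (22.22%) were called lower and 0 higher, against 3.8% and 8.02% of all genes. Npm1 stands in this list and in the one before and is counted in both. Emg1, a methyltransferase of the small-subunit rRNA, was at 194 to 233 CPM with the element and at 103.4 to 171 CPM without it, with no overlap (log2 -0.72, adjusted p = 0.00696 by edgeR). Nop16, Ddx21 and Npm1 followed, with log2 differences of -0.73, -0.70 and -0.79. The 78 mitochondrial ribosomal protein genes, which build a separate ribosome, had a median of -0.20. Of them 64 (82.05%) were negative, against 49.96% of all genes, so most shared the direction. Called lower were 4 (5.13%), near the 3.8% of all genes, and 2 were called higher. Of 13 regulators in the mTOR and MYC pathways none was called lower and 1 was called higher, where 8.02% of all genes were. It was Rheb, the activator of mTOR (log2 0.43, adjusted p = 0.0469 by edgeR), whose libraries with and without the element overlapped. The paralogs and fusions outside the naming rule, 7 of 10 tested, held no call, and Rpl22l1, the paralog of Rpl22, was at 54.9 to 120 CPM.

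The deposited values also divide each member's reads among its annotated transcripts. The 78 members had 482 transcripts in the files, from 1 to 19 each, and in 28 members a single transcript held over 90% of the reads. Of 282 transcripts with at least 1% of their gene's reads, 0 separated the 6 libraries without the element from the 6 with it, which is 0% of those compared. Rps24, whose last exons are spliced differently between tissues, is given as an example, chosen after its values were seen. Rps24-201 held 35.4%, 44.4% and 36.7% of the gene's reads in Wild-type, and 15.4%, 16.8% and 34.1% in Mdmx-Tg. It held 38.3%, 27.5% and 32.3% in Pu.1-URE-/- and 14.1%, 27.0% and 16.9% in the double mutants. The libraries of Mdmx-Tg and of the double mutants all lay below all Wild-type libraries, while Pu.1-URE-/- overlapped them. For Mdmx-Tg the gap was narrow, 34.1% against 35.4%. The share of transcripts that separated Mdmx-Tg from Wild-type is not given. Rps24-202 held 13.7% to 25.8% in Wild-type and 36.9% to 45.3% in the double mutants, without overlap, as 13.8% of the 282 transcripts did in that comparison. These shares are Salmon's estimates between transcripts that overlap in sequence, and were not tested.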

How the data were processed

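Per the labels' protocols, polyA RNA of sorted bone marrow cells from 12 mice was sequenced on the BGISEQ-500 as paired reads. The submitters' processing notes list FastQC, Salmon, DESeq2, mm10 and GRCm38; settings are not given in the sources used here. Per the file headers, the deposited files give, for each transcript, an estimated count from Salmon without normalization, the authors' TPM, and its lengths. Of 116248 transcripts, 116072 were matched to GENCODE M21, and the 176 others held 0.0187% to 0.0521% of a library's reads.

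Estimated counts of a gene's transcripts were added and rounded to whole numbers. Genes with at least 10 reads in 3 libraries (15061) were fitted with edgeR 4.0.16 in R 4.3.3: TMM factors, a quasi-likelihood test, 1 mean per genotype over 12 libraries, and Benjamini-Hochberg adjustment over all genes at 0.05. The biological coefficient of variation was 0.797. CPM are TMM-scaled. DESeq2 1.42.0 and limma 3.58.1 served as alternatives. Counts by unadjusted p and by DESeq2 take both directions. Copies were found with blastn 2.17.0. The scripts were tested on simulated data with a smaller spread than that of these libraries. That test checked the size of the estimates and does not bear on calls at the spread seen here. p-values measure the spread between these mice; nothing says whether they were handled in batches.

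The members, lists, tests and alternatives were chosen with earlier results of these data known. The text names members called in any comparison, those with the smallest p or furthest from the set's median, the highest and lowest per length, and members of fixed roles. Some members are not reported here by name. Members singled out for their copies were chosen after their values were seen.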

Additional observations from a re-analysis of the deposited data

Results flagged for a closer look

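Reads outside the 78 members carried a large signal of the same families. Over the 12 libraries, 19.85% of the reads of ribosomal protein families were assigned to near-identical copies, which the comparisons as deposited do not use. The share on copies ran from 16.55% in double mutant 1 to 22.85% in Wild-type 1. Groups of 3 libraries were too small for a check of single outlying libraries, and no member showed opposite, non-overlapping moves of the same contrast in both backgrounds.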

How the results depend on the processing

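The members' median log2 difference moved by less than the spread between members in 220 of 221 alternatives; the interaction median was 0.56 with Y-linked expression as a covariate (0.14 as reported). It changed sign in 7 of the 221, none of them for element loss, averaged or in either background. The members called or with the smallest p in a comparison kept their direction in all 1068 values; 139 lost and 21 gained a call. Other members turned: with copies added, Rplp0 (0.83 to -0.05) and Rps2 in Pu.1-URE-/- against Wild-type, and Rplp0 (0.75 to -0.02) and Rpl21 on element loss. Over all alternatives, 4 members turned at least once in each of these comparisons. In the double mutants 7 did against Wild-type, 20 against Mdmx-Tg and 51 against Pu.1-URE-/-. For Mdmx-Tg against Wild-type 55 did, for the averaged transgene effect 50 and for the interaction 54. Except by DESeq2, the share of all genes called in each alternative is not given. The number of members called was less stable than the medians. For element loss (18 as reported) it was 48 by DESeq2 (61.5%, against 19.9% of all genes) and 31 by limma-voom. It was 7 with Y-linked expression as a covariate, 0 with 3 libraries left out together, and 1 to 47 with single libraries left out. For Pu.1-URE-/- against Wild-type (1 as reported) it was 2 with relative log expression factors, 23 by DESeq2, 8 by limma-voom and 4 on protein-coding genes only. It was 2 with Y-linked expression and 0 to 11 with single libraries left out. With a term for ranges of the mouse number it was 0. These ranges were cut for that fit, and no label gives them as batches. DESeq2 called 1 member between double mutants and Pu.1-URE-/-, 4 against Mdmx-Tg and 6 against Wild-type, where leaving out single libraries gave 0 to 5. The causes were not tested. Same-numbered libraries of different groups correlated at -0.21 to 0.16 over 18 pairs, and others at -0.13 to 0.21. The group pairs differed. Between Pu.1-URE-/- and the double mutants, same-numbered pairs stood at 0.13, 0.16 and 0.07 and the others at -0.13 to 0.01. Between Wild-type and Pu.1-URE-/-, same-numbered pairs stood at -0.16, -0.02 and -0.21 and the others at -0.04 to 0.21. Whether replicate numbers pair the libraries was not tested. With the replicate number as a block, 8 members were called in Pu.1-URE-/- against Wild-type, and no other count moved by over 1.5 times. A fit on only the groups compared was run for the 5 pairwise comparisons. Depth was not limiting for any member (148 reads or more); the division of reads among near-identical copies limits single members, above all those with most reads on copies.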
